A study of Mus musculus with 16 samples.

Results

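The cytosolic ribosomal proteins are the protein subunits of the ribosomes that translate nuclear mRNAs. They were taken here as the genes whose symbol is Rpl or Rps followed by a number, together with Rplp0, Rplp1, Rplp2 and Rpsa. S6 kinase genes, Rps19bp1, Rpl7l1 and retrocopies with -ps or Gm names were left out. The rule found 85 genes of the 22114 in the count tables. Of these, 77 were canonical subunits, 31 of the small and 46 of the large subunit, and 8 were paralogs of other members (Rpl3l, Rpl10l, Rpl22l1, Rpl36al, Rpl39l, Rps4l, Rps27l and Rps27rt).

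RNA was sequenced after poly-A capture from mouse DN3 thymocytes, the CD4- CD8- CD25+ CD44- stage at which T-cell precursors rearrange the T-cell receptor beta gene, all of strain C57BL/6. In the first count table, GFPhi and GFPlo cells (3 libraries each) were sorted from mice that carried both the CD2-Lmo2 transgene (Lmo2Tg) and a doxycycline-inducible TetOP-H2B-GFP knock-in allele, heterozygous, after some weeks of doxycycline and a shorter chase without it. Cells that divide dilute the labelled histone, so GFPhi cells are those that divided less. In the second table, total DN3 thymocytes came from mice that were wild type (WT, 3 libraries), p21-/- (2), Lmo2Tg (2) or Lmo2Tg;p21-/- (2). The Lmo2 transgene, driven by the CD2 promoter in T-lineage cells, models T-cell leukaemia, and Cdkn1a encodes the cell-cycle inhibitor p21. Lmo2Tg libraries are called a and b, because the numbers in their column names also match the labels of GFPlo samples. The study describes its RNA samples as pools of several young mice and the GFP-sorted cells as coming from separate cohorts, but the labels do not say whether a replicate number marks a cohort. Nothing in the labels says that the genotype libraries came from separate mice, so p-values may measure technical spread.

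A ribosome holds a single copy of most of these proteins, so the subunits are made in matched amounts, and their mRNAs are among the most abundant of a growing cell. Many of the mRNAs begin with a terminal oligopyrimidine (TOP) tract, through which mTORC1 and Larp1 control their translation and stability. Free Rpl5 and Rpl11 bind Mdm2 and so stabilise p53, a regulator of Cdkn1a. RPL5, RPL10 and RPL22 are mutated or deleted in some T-cell leukaemias, and ribosomal protein genes have left many processed retrocopies in the genome.

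The sequence around the start of transcription is shown for members that the comparisons below turn on, because the TOP tract lies there. Each line holds 30 bases, 15 on either side of the RefSeq start (GRCm38.p6), 5′ to 3′ on the gene's strand, and capitals mark any of 3 motifs of pyrimidine bases: CTTTC, the motif with a final T in place of that C (CTTTT), and a version with a second C (CTTCC). Matches may overlap. Both strands were searched, and the capitals mark matches on the gene's strand alone. The windows are chr7:118116133-118116162 (minus strand) for Rps15a, chr3:130730384-130730413 (minus) for Rpl34, chr14:24490663-24490692 (plus) for Rps24, chr10:23787195-23787224 (minus) for Rps12, chr2:26910792-26910821 (plus) for Rpl7a, chr2:39005117-39005146 (minus) for Rpl35, chr15:5116598-5116627 (plus) for Rpl37, chr17:24720048-24720077 (plus) for Rps2, chr17:24727811-24727840 (plus) for Rpl3l, chr3:90213634-90213663 (minus) for Rps27 and chr9:66946071-66946100 (plus) for Rps27l.
Rps15a: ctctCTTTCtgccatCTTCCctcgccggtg
Rpl34: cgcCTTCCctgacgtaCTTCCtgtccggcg
Rps24: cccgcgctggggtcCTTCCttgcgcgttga
Rps12: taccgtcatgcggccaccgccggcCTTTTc
Rpl7a: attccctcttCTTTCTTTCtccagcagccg
Rpl35: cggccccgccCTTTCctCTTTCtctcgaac
Rpl37: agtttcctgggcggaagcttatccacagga
Rps2: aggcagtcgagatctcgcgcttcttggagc
Rpl3l: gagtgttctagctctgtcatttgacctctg
Rps27: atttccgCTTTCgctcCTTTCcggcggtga
Rps27l: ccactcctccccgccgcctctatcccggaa
Rps27 and its paralog Rps27l differed in these letters: Rps27 holds CTTTC on both sides of its start, and the Rps27l window holds no match. Of the 57 canonical members found in the promoter table, 25 (43.9%) held such a motif on the sense strand, against 3526 (13%) of 27025 genes in that table. On the antisense strand the shares were 21.1% of members and 13% of all genes. The RefSeq start lies 1947 bases from the GENCODE start for Rps2, 3553 for Rps24 and 493 for Rpl35, so the windows shown may miss other starts of these genes.

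The total count was 26861394 to 31106213 per library in the GFP-sorted table and 13864936 to 16837667 in the genotype table. Levels are given as CPM, counts scaled to a common library total after each total was multiplied by its TMM factor (0.991 to 1.01 in the first table and 0.964 to 1.02 in the second, where the Lmo2Tg libraries had the lowest factors, 0.966 and 0.964). Shares of reads and limits of detection use the totals as they are, and 3 counts, the limit that a count of 0 allows, came to 0.0964 to 0.112 CPM in the first table and 0.178 to 0.216 CPM in the second. These limits cover counting error only.

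The genes that the alleles target were read first. Lmo2 stood at 41.4 and 100.4 CPM in Lmo2Tg libraries a and b and at 85.4 and 107 CPM in the Lmo2Tg;p21-/- libraries, against 0.064 to 0.306 CPM in the 5 libraries without the transgene. Cdkn1a stood at 36.5, 37.5 and 49.0 CPM in WT and 32.8 and 26.3 CPM in Lmo2Tg libraries, at 14.3 and 17.7 CPM in p21-/- and at 4.35 and 3.50 CPM in Lmo2Tg;p21-/- libraries. It was lower in p21-/- than in WT (log2 fold change -1.36, edgeR quasi-likelihood test, adjusted p = 0.00821), but reads were still counted on the gene, and the tables do not show which exons they fell in. All 12 genes of a DN3 marker list, among them Ptcra, Rag1 and Tcf7, were detected in every library. Tcf7 was the most abundant of them on average, although Il2ra exceeded it in GFPhi replicate 3 (3225 against 2692 CPM). In all 3 GFPhi and all 3 GFPlo libraries Lmo2 was expressed (29.5 to 285 CPM).

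GFPhi replicate 3 stood apart from the other GFPhi libraries. It held 285 CPM of Lmo2 against 53.8 and 29.5, 6.56 CPM of Cdkn1a against 35.8 and 29.9, and 5.55 CPM of the p53 target Zmat3 against 188 and 174. Its counts differed from those of GFPhi replicates 1 and 2 with a chi-square per degree of freedom of 115 and 134, against 7.6 between those replicates. B-lineage marker genes were also higher in GFPhi, with summed levels of 41.1, 107 and 53.3 CPM against 24.9, 28.6 and 25.3 CPM in GFPlo, and 4 of 7 tested called higher. The most abundant gene over all 6 libraries, Cd79b, had a log2 fold change of 0.04, and the largest part of the difference lay in Cd74, at 13.7, 57.4 and 16.4 CPM against 0.296, 0.419 and 0.419 CPM. Their part in the GFPhi results was not tested, and the main counts, medians and called members are also given without replicate 3.

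Canonical ribosomal protein genes took 1.64% to 1.78% of the counted reads in the GFP-sorted libraries and 5.46% to 7.26% in the genotype libraries. In GFPhi the share was 1.67%, 1.67% and 1.78%, and in GFPlo 1.70%, 1.64% and 1.64%, so the groups overlapped (1.71% ± 0.0661 and 1.66% ± 0.0339, SD, n = 3). Lmo2Tg;p21-/- libraries had the lowest shares of the genotype table, 5.57% and 5.46% (5.52% ± 0.0799, n = 2). Lmo2Tg libraries held 6.01% and 6.48%, p21-/- libraries 6.00% and 6.35%, and WT libraries 6.04%, 6.16% and 7.26%. WT replicate 3 was the highest of all and carried most of the spread of its group (6.48% ± 0.674). With 2 libraries against 2 or 3, no permutation test of these shares could reach significance, and none was run. In bulk samples, less mRNA per cell and fewer cells of a type cannot be told apart.

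**Figure D1:**
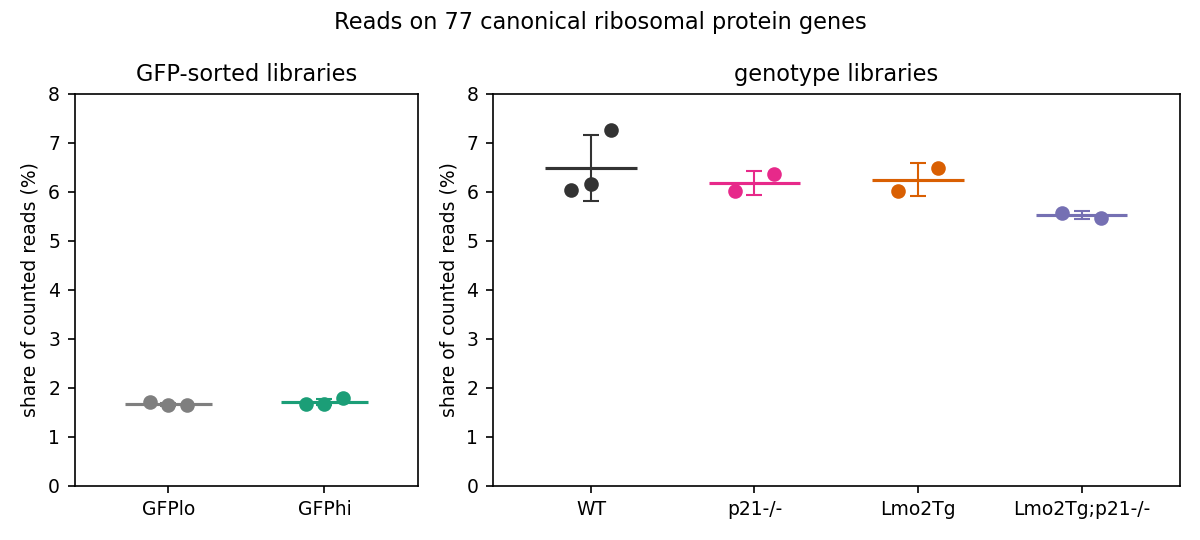
Share of counted reads, in percent, that fell on the 77 canonical ribosomal protein genes, with a point per library and a line at each group mean, in the GFP-sorted and the genotype table. The Lmo2Tg;p21-/- libraries (5.57% and 5.46%) lie below the other 7 genotype libraries, and the GFP-sorted libraries all lie between 1.64% and 1.78%.

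The tables differed in how much of the family they counted. Over the 77 canonical genes, the mean CPM of the genotype table was a median 6.81 times that of the GFP-sorted table, whereas the median was 0.925 times over 11170 other genes tested in both. More than 10-fold differences were seen for 30 of 77 members (39%) and 0.546% of the other genes. Rps6, the subunit phosphorylated by S6 kinase, averaged 4.04 CPM in the GFP-sorted and 904 CPM in the genotype table. Rpl8, for which no retrocopy passed the rule below, averaged 1495 and 1410 CPM. Cells, protocol and read counting, strand setting included, all differ between the tables or may do so, so they cannot be told apart and no test was made across tables.

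Members with more retrocopies differed more. Retrocopies were counted as annotated pseudogenes with at least 95% identity over at least 50% of the coding sequence. The 13 members with 0 or 1 retrocopy had a median ratio of 2.13, the 21 with 2 to 4 a ratio of 3.79, the 26 with 5 to 9 a ratio of 13.4 and the 17 with 10 or more a ratio of 23.2. Across the 77 genes, which are not independent, the log2 ratio and the log2 number of retrocopies plus 1 had a Pearson's r of 0.519 and a Spearman's rho of 0.59. How reads that match both a parent and its retrocopies were counted was not tested. Under 10 CPM on average were 17 canonical members among GFP-sorted cells and 1 among the genotypes. The latter was Rpl24, at 1.82 and 2.09 CPM in the respective tables. Its annotation overlaps Gm28037 on the same strand, and its values are uncertain.

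**Figure D2:**
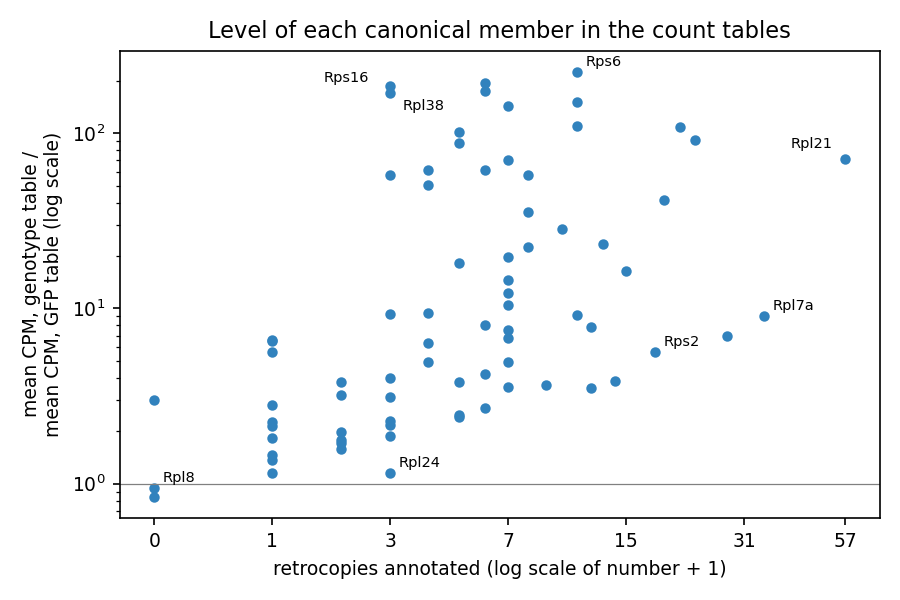
Ratio of the mean CPM of the genotype table to that of the GFP-sorted table (log axis) for each of the 77 canonical genes against the number of its annotated retrocopies (log scale of number + 1). Rpl8, with 0 retrocopies, lies at 0.943, and Rps6, with 11, is the highest at 224.

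Per kilobase of exon, the most abundant canonical members of the genotype table were Rplp1 (2310 CPM per kb), the acidic stalk protein, and Rplp0 (1422), the base of the stalk that recruits elongation factors. Next came Rps3a1 (1395), Rps15 (1273) and Rpl4 (1262). The median member stood at 373 CPM per kb. In the GFP-sorted table Rplp1 was again the highest (1301 CPM per kb), Rpl8 followed (1100) and the median was 40.3 CPM per kb.

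Whether loss of p21 altered the family in Lmo2Tg thymocytes was asked by comparing Lmo2Tg;p21-/- with Lmo2Tg. Ribosomal protein mRNAs lay lower in Lmo2Tg;p21-/- across the family, by small amounts. All 77 canonical members had a log2 fold change below 0, with a median of -0.236 (a level 15.1% lower, median SE 0.104), whereas 47.3% of all 11840 genes tested lay below 0 and their median was 0.0178. Among genes outside the family with over 100 CPM the median was -0.0418. For 76 of 77 members both Lmo2Tg;p21-/- libraries lay under both Lmo2Tg libraries, which was so for 25.7% of all genes. In the Lmo2Tg;p21-/- libraries 73 and 76 of 77 members lay below their mean over the genotype libraries, with median log2 deviations of -0.144 and -0.183. Members moved together within a library: 76 of 77 lay above their mean in Lmo2Tg library b, and 76 of 77 in WT replicate 3. Counts of members, here and in the other comparisons, are therefore not counts of independent observations. Libraries of the other groups did not stand together. The median deviations were 0.0195 and 0.133 in Lmo2Tg libraries a and b, -0.0473 and 0.0589 in p21-/- and -0.0429, -0.00657 and 0.222 in WT libraries, so the family shifted between WT libraries by as much as between these genotypes. The distance between WT replicates 1 and 3 also exceeded the size of the median log2 fold change of -0.236 given above. Single members seldom passed the test. At an unadjusted p under 0.05 stood 47 of 84 members, against 25.5% of all genes. Adjusted over all genes, 5 of 84 members tested (5.95%) were called, 4 lower and 1 higher, against 6.94% of all genes (3.59% lower and 3.35% higher), so under this fit the share called in both directions together was below the background and the share called lower was 4 of 84 against 3.59%.

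The 4 members called lower were Rps2, Rps15a, Rpl35a and Rpl3l. Rps15a, a small-subunit protein, stood at 984 and 1025 CPM in Lmo2Tg and at 828 and 727 CPM in Lmo2Tg;p21-/- libraries (log2 fold change -0.37, SE 0.0913, adjusted p = 0.0381). Rpl35a, a large-subunit protein and a gene of Diamond-Blackfan anaemia, stood at 342 and 356 CPM against 281 and 279 CPM (-0.32, SE 0.0854, adjusted p = 0.0497). In both genes the groups did not overlap. Rps2, which lines the entry of the mRNA channel, fell from 934 and 1086 CPM to 571 and 607 CPM (-0.78, SE 0.120, adjusted p = 0.0061). It changed more than any other canonical member except Rpl24, whose change of -0.84 at about 2 CPM did not pass the test (adjusted p = 0.197). The least lowered were Rpl13 (-0.07) and, among others, Rpl22 (-0.15). These calls rested on few libraries: without Lmo2Tg;p21-/- replicate 1, 0 of 84 members were called (0.495% of all genes), and without any of the other 3 libraries in turn 2 or 3 were (2.25% to 4.26% of all genes). DESeq2 called 24 of 84, 23 of them lower, against 8.87% of all genes, and a correction for gene length 21, 20 of them lower, against 9.2%, so with these the members were called more often than all genes. The direction did not depend on this choice, and all canonical members tested lay below 0 under each alternative.

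Members with known roles followed the family. Rpl5 and Rpl11, the Mdm2-binding pair, had log2 fold changes of -0.21 (SE 0.0850, adjusted p = 0.156) and -0.26 (SE 0.109, adjusted p = 0.165). The stalk genes Rplp0, Rplp1 and Rplp2 gave -0.21, -0.19 and -0.20. Rps14, the gene of the 5q- syndrome, gave -0.30, Rps19, the most often mutated gene of Diamond-Blackfan anaemia, -0.27, and Rpl10 -0.26. Rps6 gave -0.25. None of these 9 passed the test after adjustment. Gnb2l1, which encodes Rack1 on the surface of the small subunit, stood at 1814 and 1914 CPM in Lmo2Tg and 1645 and 1573 CPM in Lmo2Tg;p21-/- libraries (-0.21, adjusted p = 0.248). The medians of members with and without a TOP-like motif at the start were close: -0.246 for the 25 members with the motif and -0.253 for the 32 without it.

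**Figure D3:**
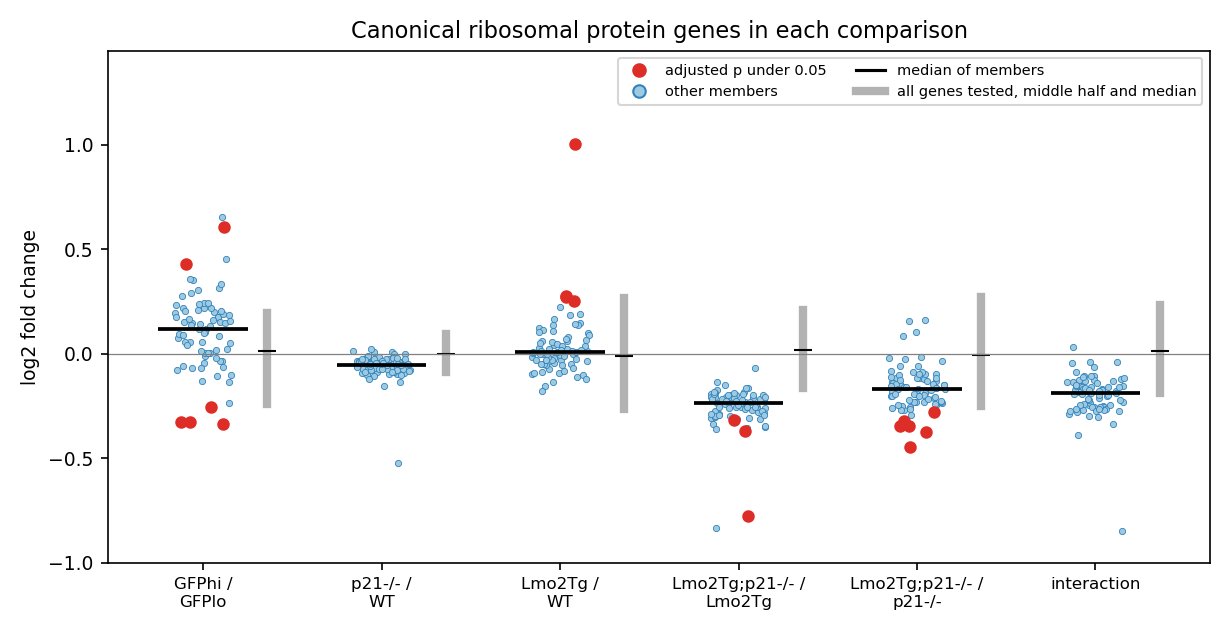
Log2 fold change of each of the 77 canonical genes in each comparison, and in the interaction of transgene and p21 loss. Red points passed an adjusted p of 0.05, black lines are medians of the members, and grey bars give the interquartile range of all genes tested with their median. All points lie below 0 in Lmo2Tg;p21-/- against Lmo2Tg.

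Related genes were read from lists. Of 19 tested elongation factors and other TOP mRNAs, 18 lay below 0 in Lmo2Tg;p21-/- against Lmo2Tg, with a median of -0.244 and 1 called lower, the chaperonin subunit Cct4 (-0.35, adjusted p = 0.0318). Of 21 ribosome assembly factors, 20 lay below 0 (median -0.224) and 3 were called lower: Tsr2, the escort of Rps26 (-0.52, adjusted p = 0.0171), and the box C/D snoRNP proteins Nop56 (-0.39, adjusted p = 0.0264) and Nop58 (-0.45, adjusted p = 0.0325). Genes of RNA polymerase I and III, which transcribe ribosomal RNA, had a median of -0.0353, with 1 of 12 called lower (Polr1d, -0.35, adjusted p = 0.0436). Regulators of TOP mRNAs and of mTORC1 had a median of -0.0061, with 1 of 15 called lower (Cnbp, -0.40, adjusted p = 0.0261). Mitochondrially encoded mRNAs also lay lower (all 7 tested below 0, median -0.324, 1 called), as did 24 of 25 replication-dependent histone genes (median -0.994, 3 called lower and 1 higher), whose summed level was 86.2 and 177 CPM in Lmo2Tg and 51.8 and 58.8 CPM in Lmo2Tg;p21-/- libraries. Their part in the result was not tested.

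Whether p21 loss acted alike with and without the transgene was tested as an interaction across the 4 genotypes. The test called 163 genes (1.38%) and 0 of 84 members. At an unadjusted p under 0.05 stood 6 members, against 18.1% of all genes. DESeq2 called 1, Rps15a, a smaller share of members than of all genes. The point estimates of 76 of 77 canonical members lay below 0, with a median of -0.188 against 0.0127 over all genes. The lowest were Rpl24 (-0.85, SE 0.531), Rps15a (-0.39, SE 0.123, adjusted p = 0.139) and Rps12 (-0.33), and the highest Rpl13 (0.03), Rpl18 (-0.04) and Rps15 (-0.04). In single ribosomal protein genes a difference between backgrounds was thus called by DESeq2 for Rps15a alone, less often than among all genes, and by edgeR for none.

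Without the transgene, p21 loss left the family near its WT level. In p21-/- against WT, 13 genes (0.11%) and 0 of 84 members were called, and 2 members, Rps2 and Rpl3l, had an unadjusted p under 0.05, against 3.3% of all genes. DESeq2, and edgeR without a filter on low counts, each called 1, which was Rps2, with shares of all genes somewhat above the 0.11% given here. The median log2 fold change of canonical members was -0.0515, with 73 of 77 below 0, against -0.000575 over all genes. In WT replicate 3, 76 of 77 members lay above their mean over the genotype libraries. Without that library the median was 0.0289, and a correction for gene length also moved it to the other side of 0 (0.00515). Rps2 stood at 743 and 785 CPM in p21-/- and at 1004, 1032 and 1259 CPM in WT libraries, which did not overlap (-0.52, SE 0.110, adjusted p = 0.317). After Rps2, the lowest were Rpl36 (-0.15) and Rpl18 (-0.13), and the highest were Rps15a (0.02), Rpl24 (0.01) and Rpl22 (0.01).

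The effect of the transgene was read from Lmo2Tg against WT, which shares its Lmo2Tg libraries with the comparison above. Here 4329 genes (36.6%) were called, 19.7% higher and 16.9% lower, and 5 of 84 members (5.95%), all higher. They were Rps15a (0.28, SE 0.0828, adjusted p = 0.0241), Rps24 (0.27, SE 0.0884, adjusted p = 0.0345), Rpl34 (0.25, SE 0.0891, adjusted p = 0.0473), the poorly counted Rpl24 (1.00, SE 0.344, adjusted p = 0.0413) and the paralog Rpl3l. Rps24, a small-subunit protein mutated in Diamond-Blackfan anaemia, stood at 1399 and 1478 CPM in Lmo2Tg and 1117, 1147 and 1315 CPM in WT libraries. Rps15a, at 984 and 1025 CPM, was likewise above the 814, 816 and 861 CPM of WT. Neither gene's groups overlapped. The family as a whole was centred near 0: the median was 0.0094, with 42 members above and 35 below 0, and upper-quartile scaling turned it to 20 above and 57 below. The lowest members were the laminin-binding Rpsa (-0.18), Rpl13 (-0.16) and Rpl28 (-0.14), and 0 members were called lower. Groups did not overlap for 7 of 77 members (9.09%), against 60.9% of all genes. A correction for gene length raised the members called to 16, with 39% of all genes called. Leaving out WT replicate 3 raised them to 12, with 32.5% of all genes called, and those above 0 to 69 of 77. Without each of the other 4 libraries in turn, 1 or 2 members were called. In a fit with 1 called, the share of all genes called was close to that 32.5%. For fits with 2 called no share is given here, so that count cannot be set against all genes.

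Lmo2Tg;p21-/- was also compared with p21-/-, the effect of the transgene in the absence of p21. The family lay lower with the transgene: 73 of 77 canonical members were below 0, with a median of -0.167 against -0.00427 over all genes. In this comparison 3639 genes (30.7%) were called, 14.4% lower, and 7 of 84 members (8.33%), all lower. They were Rps12 (-0.45, adjusted p = 0.0116), Rps2 (-0.38, adjusted p = 0.035), the ubiquitin fusion Rps27a (-0.35, adjusted p = 0.0255), Rpsa (-0.35, adjusted p = 0.0385), Rps27l (-0.33, adjusted p = 0.0217), Rpl3, which lines the peptidyl transferase centre (-0.32, adjusted p = 0.0233), and Rpl36a (-0.28, adjusted p = 0.0474). Rps12 stood at 806 and 819 CPM in Lmo2Tg;p21-/- and at 1047 and 1168 CPM in p21-/- libraries. Rpl3 stood at 1357 and 1363 CPM against 1620 and 1777 CPM. Both genes were lower in each double-mutant library than in each p21-/- library. Rps24 (0.16) and Rpl24 (0.16) were the highest and were not called. Groups did not overlap for 65 of 77 members, 62 of them lower, against 70.9% of all genes and 35.4% lower. Leaving out any of the 4 libraries in turn reduced the members called to between 0 and 2: 0 without Lmo2Tg;p21-/- replicate 1 or p21-/- replicate 2, 1 without Lmo2Tg;p21-/- replicate 2 and 2 without p21-/- replicate 1. Calls over all genes fell as well, to 15.8%, 18%, 26.3% and 22.2% in the same order. With the replicate number as a block 36 were called, against 42.3% of all genes.

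In the same comparison 9 of 21 assembly factors were called lower, among them Dkc1, the pseudouridine synthase (-0.56, adjusted p = 7.3e-04), and Ncl, nucleolin (-0.57, adjusted p = 0.00453), and 1 higher, Sqstm1 (0.59, adjusted p = 8.23e-04), better known as an autophagy receptor. Of 19 elongation factors and other TOP mRNAs, 7 were called lower, among them Npm1 (-0.58, adjusted p = 0.00573), and Vim, a cytoskeletal gene with a TOP mRNA, was called higher (2.05, adjusted p = 8.82e-07). Of 12 RNA polymerase I and III genes, the polymerase I subunits Polr1a (-0.33, adjusted p = 0.00734) and Polr1b (-0.40, adjusted p = 0.0055) were called lower and Maf1, a repressor of RNA polymerase III, higher (0.33, adjusted p = 0.0351). In Lmo2Tg against WT, Polr1b was also lower (-0.33, adjusted p = 0.00875), Maf1 higher (0.54, adjusted p = 0.00147) and Myc, an activator of ribosomal protein genes, lower (-0.88, adjusted p = 0.00342). In that comparison 3 assembly factors were called lower and 1 higher. These comparisons share libraries and are not independent of each other. Early progenitor markers moved with the transgene, with 6 of 7 called higher in Lmo2Tg against WT, as did DN3 markers, with 9 of 12 called lower. Their part in the results was not tested.

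GFPhi and GFPlo DN3 thymocytes were compared to ask whether cells that divided less held less ribosomal protein mRNA. The family did not move in a single direction. Of 82 members tested, 2 were called higher and 5 lower (8.54% called), against 14.9% of all 11581 genes (5.37% higher and 9.49% lower). The canonical members had a median log2 fold change of 0.117, with 57 above and 20 below 0, against 0.0152 over all genes, and groups did not overlap for 31 of 77 (40.3%), close to the 41.3% of all genes. Small-subunit members had a median of 0.176 and large-subunit members of 0.0517. Members on chromosomes 2 and 15, described below, are included and all belong to the large subunit except Rps21. The shift upwards rested in part on GFPhi replicate 3, in which 68 of 77 members lay above their mean over the 6 libraries. Without it the median was 0.0578, with 46 above and 31 below 0, and 9 members were called higher and 9 lower. Small-subunit members then had a median of 0.11 and large-subunit members of 0.0117. Of all genes 41.3% were then called, 19.5% higher and 21.7% lower. Without each of the other 5 libraries in turn, 0 to 2 members were called, with 0 when GFPlo replicate 2 was left out. In that last fit the share of all genes called was also far lower than 14.9%. Shares for the other fits of this kind are not given here, so their counts cannot be set against all genes. With the replicate number as a block 0 members were called, against 4.28% of all genes.

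Rps2 and Rpl27 were called higher in GFPhi. Rps2 stood at 186, 191 and 196 CPM in GFPhi and 139, 122 and 116 CPM in GFPlo libraries (0.61, SE 0.0809, adjusted p = 0.00877). Rpl27, a large-subunit protein, stood at 19.4, 20.3 and 19.0 CPM against 14.2, 14.0 and 15.3 CPM (0.43, SE 0.0918, adjusted p = 0.0313). The groups did not overlap for either gene. Rps27 (0.65, adjusted p = 0.153) and Rps6 (0.45, adjusted p = 0.198) were also among the 3 highest canonical members but were counted at under 16 CPM and did not pass the test. The canonical members called lower were Rpl8, Rpl35, Rpl37 and Rpl7a, all of the large subunit and all on chromosome 2 or 15. Rpl8 fell from 1651, 1708 and 1648 CPM in GFPlo to 1277, 1274 and 1410 CPM in GFPhi (-0.34, SE 0.0673, adjusted p = 0.0263). Rpl35 (-0.33, adjusted p = 0.0467), Rpl37 (-0.33, adjusted p = 0.0293) and Rpl7a (-0.26, adjusted p = 0.0369) did likewise. Without GFPhi replicate 3, when 41.3% of all genes were called, these 6 genes were again called in the same directions, at 0.59 for Rps2, 0.46 for Rpl27, -0.38 for Rpl8, -0.35 for Rpl35, -0.35 for Rpl37 and -0.27 for Rpl7a. Over 17 alternatives each kept its direction. The call was lost in 3 for Rps2, in 7 each for Rpl27, Rpl8 and Rpl37, in 8 for Rpl7a and in 9 for Rpl35.

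Members with known roles did not share a direction in GFPhi. Rpl5 (38.1, 39.5 and 43.8 CPM in GFPhi against 39.5, 40.0 and 41.6 CPM in GFPlo), Rpl11 (-0.06) and Rpl22 (-0.03) lay near 0 with overlapping groups. Rplp0 (0.17, adjusted p = 0.128), Rps14 (0.20, adjusted p = 0.136) and Rps19 (0.19, adjusted p = 0.204) lay above 0 and did not pass the test.

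The 4 canonical genes called lower lie on chromosomes 2 (Rpl35 and Rpl7a) and 15 (Rpl8 and Rpl37). The 4 canonical members of chromosome 2, Rpl12, Rpl35, Rpl7a and Rps21, were all below 0 (median -0.195), and other genes of that chromosome had a median of -0.178. The 4 of chromosome 15, Rpl3, Rpl30, Rpl37 and Rpl8, were also all below 0 (median -0.228), with -0.434 for other genes there. The 69 canonical members on other chromosomes had a median of 0.146, against 0.0445 for other genes. Without GFPhi replicate 3, 3 of 4 members on each of the chromosomes 2 and 15 were called lower (medians -0.282 and -0.284), and of the 69 elsewhere 7 were called higher and 2 lower (median 0.073). In that fit 19.5% of all genes were called higher and 21.7% lower. Other genes then had medians of -0.191 on chromosome 2, -0.432 on chromosome 15 and 0.0385 elsewhere. Their shares called by chromosome are not given here. Members on chromosomes 2 and 15 thus lay on the side of their chromosomal neighbours. All of these members except Rps21 are of the large subunit, so subunit and chromosome cannot be told apart for them.

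**Figure D4:**
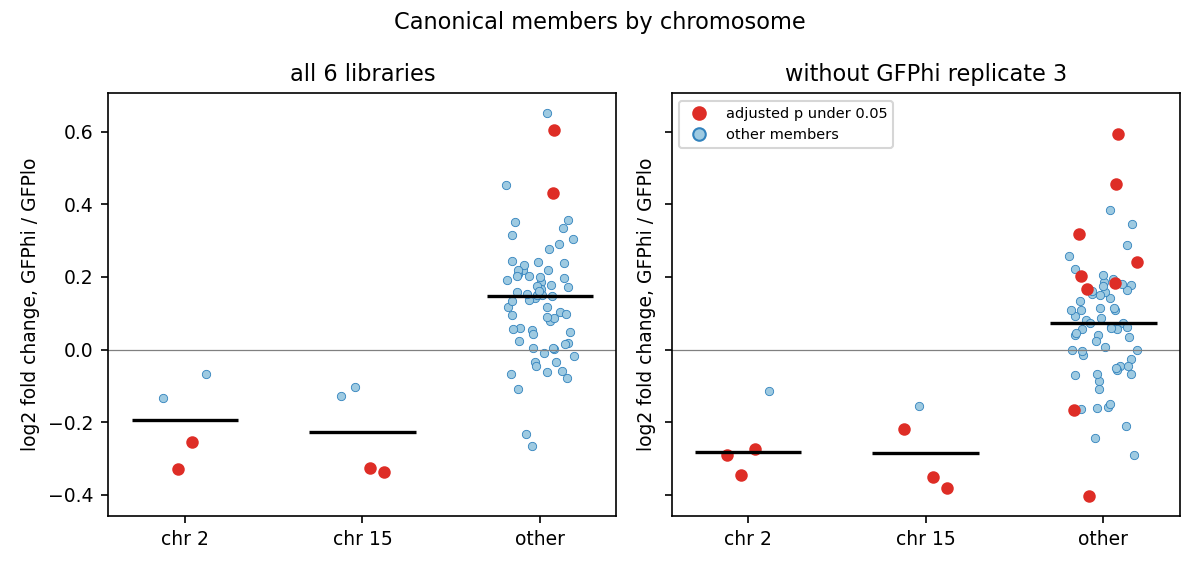
Log2 fold change of GFPhi against GFPlo for canonical members on chromosome 2, chromosome 15 and all other chromosomes, from all 6 libraries (left) and without GFPhi replicate 3 (right), with lines at medians and red points for an adjusted p under 0.05. All 8 members on chromosomes 2 and 15 lie below 0 in both panels.

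Among related genes in GFPhi, 4 of 19 elongation factors and other TOP mRNAs were called lower, Pabpc1 (-0.61, adjusted p = 0.0119), Eif4b, Eif3h and Eef1d, and 0 higher, with a median of -0.00887. The mTORC1 regulators Rptor, Tsc1, Tsc2 and the translational repressor Eif4ebp1 (-1.58, adjusted p = 0.00367) were called lower and Larp1 (0.22, adjusted p = 0.0372) higher, of 15 tested. Of 21 assembly factors, 1 was called lower (Wdr12, -0.38, adjusted p = 0.0282). The polymerase I factor Ubtf was higher (0.23, adjusted p = 0.0406), the sole call of 12 polymerase genes. Without GFPhi replicate 3, when more genes were called, 2 elongation factors and other TOP mRNAs were higher and 6 lower, 3 TOP and mTORC1 regulators higher and 6 lower, 2 assembly factors higher and 3 lower, and 5 polymerase genes higher and 3 lower.

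Rps2 and Rpl3l were the members called most often, and their genes are neighbours on chromosome 17. Rps2 spans chr17:24718116-24721929 and Rpl3l chr17:24727820-24736143 (GRCm38, both on the plus strand), 4.37 and 4.35 Mb from Cdkn1a. Rpl3l is a paralog of Rpl3 whose protein is known from striated muscle. It was counted at 12.9 and 4.99 CPM in Lmo2Tg, 0.428 and 1.27 CPM in Lmo2Tg;p21-/-, 0.586 and 0.0633 CPM in p21-/- and 1.53, 1.59 and 1.75 CPM in WT libraries. It was thus above WT with the transgene (2.45, SE 0.463, adjusted p = 0.00213) and fell with p21 loss in Lmo2Tg cells (-3.34, SE 0.582, adjusted p = 0.00988). In p21-/- against WT the log2 fold change was -2.26 with an adjusted p of 0.984, where p21-/- replicate 2 held a single read. In GFPhi it stood at 0.882, 2.66 and 0.596 CPM and in GFPlo at 11.3, 6.71 and 4.93 CPM (-2.46, SE 0.626, adjusted p = 0.0497), and without GFPhi replicate 3 it was again called lower (-2.08, SE 0.519). Rps2 lay lower without p21 in both backgrounds. In Lmo2Tg cells it passed the test, and without the transgene it was called by DESeq2 and by edgeR with no filter on low counts but not in the other 15 alternatives. The difference between backgrounds did not pass (interaction -0.25, SE 0.161, adjusted p = 0.432). Rps2 and Rpl3l went opposite ways in GFPhi, where Rps2 was higher. Rps2 overlaps Snora64 on its own strand and Snhg9 on the other and has 18 retrocopies, so its counts are uncertain in both tables. Other chromosome 17 members, Rpl10a, Rps10, Rps18, Rps28 and Rpl36, lie 0.76 to 27.51 Mb from Cdkn1a, and none of them was called in any genotype comparison.

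**Figure D5:**
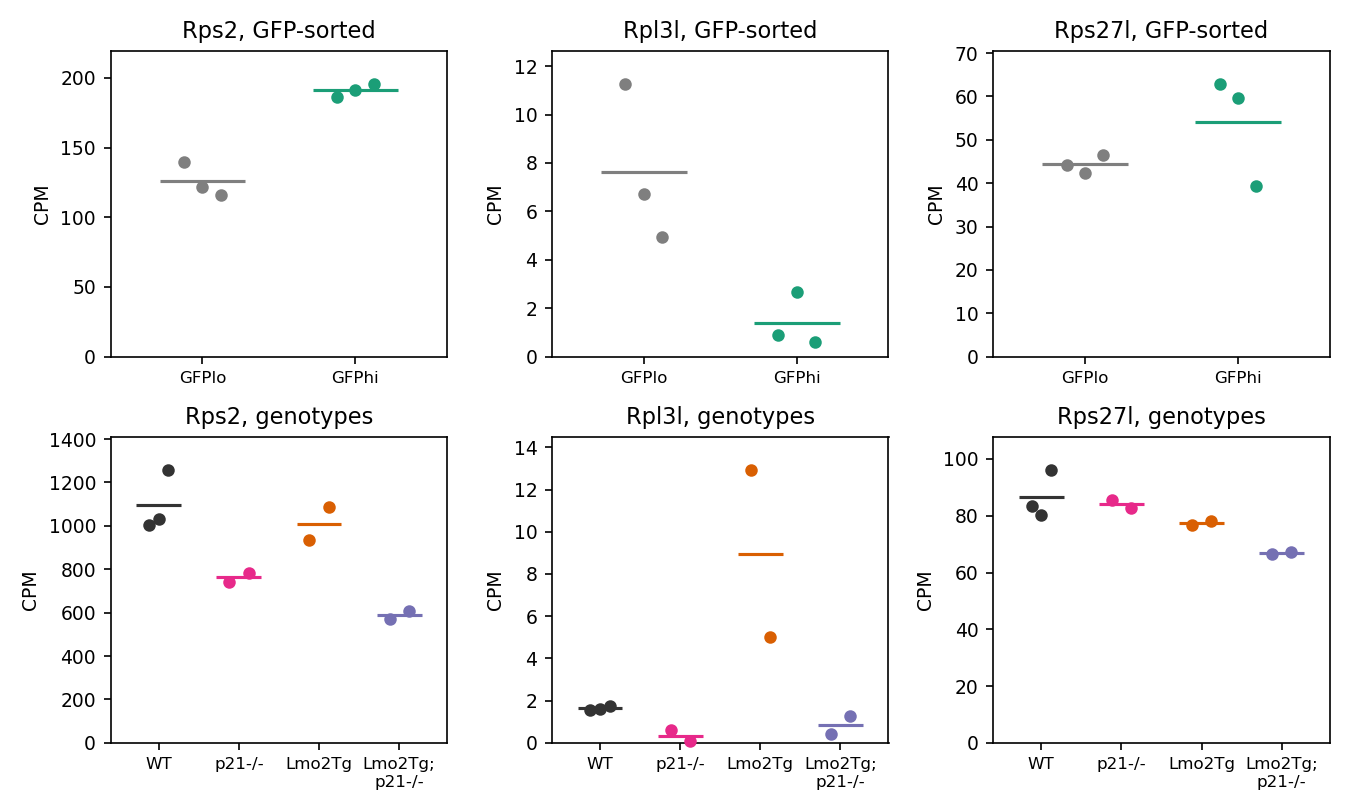
CPM of Rps2, Rpl3l and Rps27l in each library (points) with group means (lines), in the GFP-sorted and the genotype table. Within the genotype table Rps2 is lowest in the Lmo2Tg;p21-/- libraries (571 and 607 CPM), and Rpl3l is highest in the Lmo2Tg libraries (12.9 and 4.99 CPM) and the GFPlo libraries (11.3, 6.71 and 4.93 CPM).

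Rps27l, a paralog of Rps27 known as a p53 target, stood at 63.0, 59.7 and 39.4 CPM in GFPhi and 44.2, 42.3 and 46.5 CPM in GFPlo libraries. GFPhi replicate 3, the library with low Cdkn1a and Zmat3, was the lowest of the 6, and the other 2 GFPhi libraries were the highest. With all libraries Rps27l was not called (0.29, SE 0.178, adjusted p = 0.311), and without replicate 3 it was called higher (0.47, SE 0.065). Since replicate 3 held the lowest Rps27l level, leaving it out could only raise the GFPhi mean, and that call is no independent result. In the genotype table Rps27l stood at 76.6 and 78.0 CPM in Lmo2Tg, 66.5 and 67.1 CPM in Lmo2Tg;p21-/-, 85.5 and 82.7 CPM in p21-/- and 83.5, 80.2 and 96.2 CPM in WT libraries.

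The other paralogs were less expressed than their partners in the genotype table. Per kilobase, Rpl22l1 stood at 40.1% of Rpl22, Rpl36al at 30.3% of Rpl36a and Rps27l at 18.9% of Rps27. Rpl39l, Rpl3l, Rps27rt and Rps4l stood at 0.342%, 0.333%, 0.331% and 0.175% of Rpl39, Rpl3, Rps27 and Rps4x, and Rpl10l, a testis gene, at 0.00145% of Rpl10. The order differed in the GFP-sorted table, where Rps27l stood at 60.28 CPM per kb against 8.87 for Rps27 and Rpl36al at 27.99 against 4.82 for Rpl36a. Both partners are among the members counted far lower in that table. There Rps27rt stood at 50.3% of Rps27, Rpl22l1 at 25.1% of Rpl22 and Rpl3l at 5.6% of Rpl3. Rpl22l1, which is known to rise when Rpl22 is lost, stood at 115 and 149 CPM in Lmo2Tg and 95.1 and 103 CPM in Lmo2Tg;p21-/- libraries (-0.41, SE 0.128, adjusted p = 0.0791). Its partner Rpl22 lay at 430 and 472 CPM against 418 and 395 CPM (-0.15, SE 0.0973, adjusted p = 0.37). In GFPhi, Rpl22l1 stood at 55.0, 53.7 and 60.0 CPM against 49.5, 44.6 and 44.3 CPM in GFPlo, without overlap (0.29, SE 0.0776, adjusted p = 0.0589). Without GFPhi replicate 3 it was called higher (0.24, SE 0.0695). Rps4l was the sole member called higher in Lmo2Tg;p21-/- against Lmo2Tg, at 3.43 and 3.08 CPM against 1.33 and 0.957 CPM (1.5, SE 0.381, adjusted p = 0.0413). Rpl36al followed the family (-0.22 in that comparison, adjusted p = 0.277). Rpl10l had 0 counts in all 6 GFP-sorted libraries and a single count in the genotype table. It did not pass the filter in either table, and Rpl39l and Rps4l did not in the GFP-sorted table.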

How the data were processed

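The authors deposited read counts per gene, whole numbers that were not normalized, in a GFP-sorted and a genotype table. The submitters' processing notes name STAR 2.4.2a, featureCounts, limma and mm10. Words in the names of the deposited tables point to reverse-stranded counting for the GFP-sorted table and counting without strand for the genotype table, both limited to protein-coding genes. How reads with several matches were treated is not given in the sources used here. The genotype table has 1 column, named in the form of the Lmo2Tg;p21-/- libraries, that matched no sample and was not used, and 1 listed p21-/- sample that no column matched was not analysed here. Whether they belong together is not known.

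Counts were tested with edgeR 4.0.16 (quasi-likelihood, TMM scaling, R 4.3.3) on all genes that passed filterByExpr (minimum count 10, minimum total 15), with all groups of a table in the fit. A gene was called at a Benjamini-Hochberg adjusted p under 0.05, with no minimum fold. The SE was the log2 fold change divided by the square root of F. The step was tested on simulated data. Alternatives used DESeq2 1.42.0, limma-voom (limma 3.58.1), other scalings and filters, a correction for exonic length, a replicate block and leaving out each library. Coordinates, lengths and overlaps came from GENCODE M21 (GRCm38, 98.6% of genes matched), retrocopies from blastn 2.17.0, and start sequences from RefSeq (GRCm38.p6). Figures were drawn with matplotlib 3.10.9.

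In each comparison the text names the 3 highest and 3 lowest canonical members, the paralogs with partners, members with known roles, and members on chromosomes 2 and 15. Called members and genes given as examples of lists are named too, after their values were seen, and a few genes that this rule covers are not reported here. Members, lists and tests were chosen with earlier results of these data known. The lists hold elongation factors and other TOP mRNAs, TOP and mTORC1 regulators, RNA polymerase I and III, assembly factors, p53-linked genes, cell type markers, mitochondrially encoded genes and histones. No 2 libraries of a group were identical or within sampling noise (chi-square per degree of freedom at least 2.64).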

Additional observations from a re-analysis of the deposited data

How the results depend on the processing

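Across the alternatives the medians of the canonical members ran from 0.0578 to 0.152 in GFPhi against GFPlo, -0.106 to 0.0363 in p21-/- against WT, -0.055 to 0.0944 in Lmo2Tg against WT, -0.304 to -0.18 in Lmo2Tg;p21-/- against Lmo2Tg, -0.216 to -0.125 in Lmo2Tg;p21-/- against p21-/- and -0.285 to -0.123 in the interaction. The median thus changed sign under some alternatives in p21-/- against WT and in Lmo2Tg against WT. The number of members called also changed, and the cause was not tested. The share of all genes called stands in brackets. DESeq2 called 15 (25.2%) in GFPhi against GFPlo, where edgeR called 7, 1 (0.169%) in p21-/- against WT in place of 0, 24 (8.87%) in Lmo2Tg;p21-/- against Lmo2Tg in place of 5, 12 (29%) in Lmo2Tg;p21-/- against p21-/- in place of 7, and 1 (3.86%) in the interaction in place of 0. With no filter on low counts 1 (0.131%) was called in p21-/- against WT and 9 (7.39%) in Lmo2Tg;p21-/- against Lmo2Tg. A filter at 10 CPM gave 3 (34.9%) in Lmo2Tg against WT in place of 5 and 3 (8.01%) in Lmo2Tg;p21-/- against Lmo2Tg, where Rpl3l and Rps4l are no longer tested. The length correction gave 16 (39%), 21 (9.2%) and 15 (34.2%) in Lmo2Tg against WT, Lmo2Tg;p21-/- against Lmo2Tg and Lmo2Tg;p21-/- against p21-/-. Fitting only the groups compared gave 3 (33.9%), 2 (3.55%) and 11 (30.6%), and upper-quartile scaling 2 (39%) in Lmo2Tg against WT. Leaving out each library in turn gave 0 (2.33%) to 18 (41.3%) in GFPhi against GFPlo, 1 (31.8%) to 12 (32.5%) in Lmo2Tg against WT, 0 (0.495%) to 3 (4.26%) in Lmo2Tg;p21-/- against Lmo2Tg and 0 (15.8%) to 2 (22.2%) in Lmo2Tg;p21-/- against p21-/-. Where a group was left with 1 library, it was assumed to vary like the others.

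With the replicate number as a block, 0 members (4.28% of all genes) were called in GFPhi against GFPlo and 36 (42.3%) in Lmo2Tg;p21-/- against p21-/-, and with the length correction added 0 (4.24%) and 20 (41.9%). In p21-/- against WT 0 were called with either. Samples of the same number did not all deviate together (correlations of 0.0703, -0.0795 and 0.0988 between GFPhi and GFPlo, -0.237 and 0.304 between p21-/- and WT, 0.052 in both pairs of Lmo2Tg;p21-/- and p21-/-), and the labels do not say what a number marks. In Lmo2Tg;p21-/- and p21-/- the deviations within a group are exact opposites, so both pairs hold a single value and their equality carries no information. For the GFP-sorted cells it may be a cohort of mice. No paired analysis was run for comparisons with Lmo2Tg because the numbers in its column names also match labels of GFPlo samples, so no column was tied to a single numbered sample.

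Outside the 50 most abundant genes, the members' share of reads was 1.13% in GFPhi, 1.15% in GFPlo, 4.64% in Lmo2Tg, 4.1% in Lmo2Tg;p21-/-, 4.64% in p21-/- and 4.82% in WT. A tally covered 48 results for named members, and not every result given in the text. In it, 616 of 758 alternative values kept their direction and call. A call was lost in 116 and gained in 3, and 23 changed sign, all in values near 0 or in Rpl24. In p21-/- against WT, Rpl22 was -0.0011 with upper-quartile scaling and -0.066 to 0.0726 with each library left out, Rps15a -0.0496 to 0.0824, and Rpl24 -0.0705 with limma-voom, -0.114 and -0.11 with the replicate block without and with length correction, and -0.581 to 0.441 with libraries left out. In Lmo2Tg;p21-/- against p21-/-, Rpl24 ran from -0.276 to 0.748. In the interaction Rpl13 was -0.0129 with length correction and -0.0818 to 0.1 with libraries left out, Rpl18 0.00324 with upper-quartile scaling and -0.159 to 0.0195, and Rps15 -0.168 to 0.0251.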

Other observations

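Genes linked to p53 were described beside the ribosomal proteins, since Rpl5 and Rpl11 act on Mdm2. In Lmo2Tg against WT 5 of 7 were called higher, Zmat3 (2.39, edgeR adjusted p = 1.72e-05), Pmaip1 (2.84, adjusted p = 6.67e-05), Mdm2 (0.52, adjusted p = 0.00508), Mdm4 (0.46, adjusted p = 0.0142) and Bax (0.46, adjusted p = 0.0159), and Cdkn1a lower (-0.47, adjusted p = 0.0402). In Lmo2Tg;p21-/- against p21-/- 3 were called higher, among them Zmat3 (2.77, adjusted p = 2.03e-05), and in Lmo2Tg;p21-/- against Lmo2Tg Cdkn1a alone was called (-2.92, adjusted p = 9.08e-05). In GFPhi against GFPlo Mdm4 was called higher (0.28, adjusted p = 0.0346), and the median of the 7 genes was 0.501. GFPhi replicate 3 was low in several of these genes. Pmaip1 stood at 46.4, 44.7 and 2.65 CPM in GFPhi and 3.22, 3.39 and 2.13 CPM in GFPlo libraries, and Bax at 145.5, 139 and 56.6 CPM against 86.1, 79.3 and 75.8 CPM. Cdkn1a stood at 35.8, 29.9 and 6.56 CPM against 12.02, 11.1 and 8.08 CPM, and Zmat3 at 188, 174 and 5.55 CPM against 32.2, 30.3 and 21.9 CPM. Without replicate 3, when 41.3% of all genes were called, 6 of the 7 were called higher, with a median of 0.831: Pmaip1 (3.98), Zmat3 (2.69), Cdkn1a (1.67), Bax (0.83), Mdm4 (0.32) and Mdm2 (0.26). Replicate 3 had been set apart in part by its low Cdkn1a and Zmat3, so leaving it out favoured higher calls of these genes. The calls without it are therefore no independent result.

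Markers of other cells were read in each table. Erythroid genes summed to 1.94 to 33.7 CPM in the genotype libraries, with Hbb-bs the most abundant, and 0 of 5 tested were called in Lmo2Tg;p21-/- against Lmo2Tg (edgeR). In the same comparison 1 of 8 myeloid and dendritic genes, 0 of 6 B-lineage genes, 0 of 4 natural killer and gamma-delta T genes, 0 of 3 thymic stroma genes and 1 of 8 genes of later T cells were called, the last and the myeloid gene higher. In Lmo2Tg against WT 4 genes of later T cells were called higher and 3 lower, and 2 natural killer and gamma-delta T genes higher and 1 lower. In GFPhi against GFPlo, beside the 4 B-lineage genes, Nkg7 of the natural killer list (0.83, adjusted p = 0.0075), the epithelial gene Epcam (1.59, adjusted p = 0.0227) and 1 of 8 genes of later T cells were called higher. The DN3 marker Il2ra was also higher (0.68, adjusted p = 0.0294) and the early progenitor gene Kit lower (-1.003, adjusted p = 0.0101), the sole calls of 12 and 7 genes of their lists, and 0 of 3 myeloid and dendritic and 0 of 5 erythroid genes were called (edgeR). Without GFPhi replicate 3, when 41.3% of all genes were called, more markers passed. Of 12 DN3 genes 3 were higher and 1 lower, and of 7 early progenitor genes 3 were higher and 2 lower. Among 8 genes of later T cells 4 were higher and 3 lower. Higher were also 6 of 8 B-lineage, 1 of 3 natural killer and gamma-delta T and 2 of 3 thymic stroma genes. Of 5 myeloid and dendritic genes 1 was higher and 1 lower, and 0 of 5 erythroid genes were called. Their part in the ribosomal protein results was not tested.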
